A study of Mus musculus with 180 samples.

Results

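Cardiac muscle-like cells were the cells of the mouse embryoid body library in which the cardiac troponin T gene Tnnt2, the atrial myosin light chain genes Myl7 and Myl4 and the cardiac actin gene Actc1 were each detected and together held at least 20 UMIs (unique molecular identifiers, each standing for 1 captured RNA molecule). The cell also had to show at least 1000 genes and at most 15% of UMIs from mitochondrial genes. Of 20134 barcodes, 17789 passed the limits on genes and mitochondrial UMIs, and 65 of these were cardiac muscle-like cells. The values of the 4 genes chose the cells, so those values and all differences between these cells and the other 17724 kept cells are descriptions without a test.

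The study compared C57BL/6J (B6) and DBA/2J (D2) mouse embryonic stem cells, and cells of BXD strains bred from both, in 180 samples of RNA-seq, ATAC-seq, ChIP-seq and single-cell RNA-seq. Embryoid bodies are floating aggregates in which pluripotent cells differentiate without added lineage signals. Cells were held for 48 h in the epiblast-like state, aggregated at 750 cells per body for 48 h and rotated for a further 48 h. The embryoid body samples were labelled with lipid-anchored barcodes (hashes), pooled and read as 1 single-cell library. The labels call the pool a mixture of B6 and D2 and number 10 barcodes, with no treatment, deletion or transgene named. The hash table has 12 columns, of which 3 have names starting with B, 7 with D, and the other two are C1 and CB. The labels say neither which strain or line a column holds nor what C1 and CB are, so the columns are called by their names (the column D2 is written as hash D2, to keep it apart from the strain). A cell was given to a hash where the largest of the 12 counts was at least 2 times the second.

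The heart is the earliest organ to work in the mouse embryo, and its muscle forms from mesoderm under transcription factors such as Nkx2-5, Gata4, Mef2c and Tbx5. Contraction is carried by sarcomeres, in which thick filaments of myosin pull on thin filaments of actin, and troponin and tropomyosin on the thin filament make this depend on calcium. Embryonic heart muscle uses a mixed set of isoforms: slow skeletal troponin I (Tnni1) precedes the cardiac form Tnni3, smooth muscle actin Acta2 is present before it is lost, and early cells still divide. Myl7 and Myl4 are atrial in the adult and widespread in the early heart tube, while Myl2 marks ventricular muscle.

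Promoter sequence of the 4 genes that define the cells and of Tnni1, a sarcomere gene that also had a UMI in all 65 cells, is shown because these genes were detected together in the same cells. The stretches are the 250 bases before the annotated start in RefSeq, build GRCm38.p6, each read 5′ to 3′ on the gene's strand. Capitals mark matches on either strand to the motif CATTCC, which is the core of the muscle CAT element, to AGATAA, a sequence of the kind GATA factors bind, or to the CArG box, the site class of serum response factor. The search also covered TATAAA and the MEF2 site, and no searched motif had a match in the stretches of Myl4 and Tnni1.
Tnnt2: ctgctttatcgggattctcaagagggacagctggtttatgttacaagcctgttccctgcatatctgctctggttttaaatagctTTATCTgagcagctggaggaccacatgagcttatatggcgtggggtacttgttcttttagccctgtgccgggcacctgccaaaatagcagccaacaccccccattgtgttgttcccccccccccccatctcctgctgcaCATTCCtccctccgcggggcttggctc
Myl7: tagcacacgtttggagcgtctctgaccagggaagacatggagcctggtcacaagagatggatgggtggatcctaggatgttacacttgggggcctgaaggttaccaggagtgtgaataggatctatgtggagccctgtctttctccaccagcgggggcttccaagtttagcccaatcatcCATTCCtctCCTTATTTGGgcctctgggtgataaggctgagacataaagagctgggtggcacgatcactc
Myl4: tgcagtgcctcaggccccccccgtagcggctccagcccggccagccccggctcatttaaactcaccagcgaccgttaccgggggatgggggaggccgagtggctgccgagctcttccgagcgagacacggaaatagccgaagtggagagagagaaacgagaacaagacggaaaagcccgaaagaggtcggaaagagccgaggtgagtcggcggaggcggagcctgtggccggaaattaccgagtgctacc
Actc1: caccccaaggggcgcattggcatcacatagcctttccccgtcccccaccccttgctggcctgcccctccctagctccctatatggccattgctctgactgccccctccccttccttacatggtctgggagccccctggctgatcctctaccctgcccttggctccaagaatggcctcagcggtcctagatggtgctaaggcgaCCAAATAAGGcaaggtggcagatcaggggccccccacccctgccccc
Tnni1: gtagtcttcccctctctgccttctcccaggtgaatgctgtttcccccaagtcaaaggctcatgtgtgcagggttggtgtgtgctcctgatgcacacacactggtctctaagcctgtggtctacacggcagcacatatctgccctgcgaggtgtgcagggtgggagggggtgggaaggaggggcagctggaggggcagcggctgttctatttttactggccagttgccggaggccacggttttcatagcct

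These stretches lie at chr1:135836084-135836333 (plus strand), chr11:5898783-5899032 (minus), chr11:104550413-104550662 (plus), chr2:114052876-114053125 (minus) and chr1:135799171-135799420 (plus). RefSeq lists a further start for Tnnt2 and for Tnni1, which are not shown. A CArG box, read CCTTATTTGG on the gene's strand, lay 61 to 52 bases before the start of Myl7. The one before Actc1 read CCAAATAAGG, at 47 to 38 bases. Of 17 genes of the heart and smooth muscle lists whose promoters were searched, 4 held a CArG box at any start (Myl7, Actc1, Myl3 and Nebl), 8 CATTCC, 2 AGATAA, 2 TATAAA and 1 a MEF2 site. Of 32851 RefSeq promoter stretches of the same 250 bases, 1.47% held a CArG box on either strand, 12.6% CATTCC, 9.99% AGATAA, 12.4% TATAAA and 2.92% a MEF2 site. These are shares of single stretches, whereas a gene with several starts had several stretches, so the counts and shares are not in like units. CATTCC lay 27 to 22 bases before the start of Tnnt2 and 70 to 65 bases before that of Myl7. A match describes the letters only.

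The library held 723201396 UMIs. The cardiac muscle-like cells had a median of 37279 UMIs (3557 to 112631) and 5898 genes, against 37933.5 UMIs and 5721 genes in the other kept cells, and the median mitochondrial share was 3.48% against 3.47%. No doublet caller was run. Signs of 2 cells in 1 droplet were counted: 9 of 65 cardiac muscle-like cells (13.8%) and 2212 other kept cells (12.5%) had no single hash, and 11 cardiac muscle-like cells (16.9%) and 1052 other cells (5.94%) held more than 2 times the median UMIs of kept cells. The library is 1 sample, cells are not replicates, and the intervals given below cover counting error only.

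Some markers that the rule did not use had at least 1 UMI in every one of the 65 cells. Of 16 other heart muscle genes (Nkx2-5, Myh6, Myh7, Tnni1, Tnni3, Tnnc1, Actn2, Ttn, Ryr2, Tbx20, Nppa, Smpx, Csrp3, Mybpc3, Myl3 and Myl2), a cardiac muscle-like cell had a median of 9 with a UMI (4 to 15), and 62 of 65 cells had at least 5. The median of the other kept cells was 2, and 2.35% of them had at least 5. The label cardiac muscle-like is therefore kept for the set. It is weaker for single cells, since 1 UMI counts here and Tnni1 alone had a UMI in 41.6% of the other kept cells. 8 of the 65 cells had neither Ttn nor Nkx2-5. 1 cell of 76629 UMIs held 1 UMI each of Tnni1 and Nkx2-5 and none of Ttn, Myh6, Myh7 and Myl3. Some defining genes of neighbouring identities were at 0, while smooth muscle genes were mostly present and are described further on. The skeletal muscle regulators Myod1, Myog, Myf5, Myf6 and Pax7 had 0 UMIs in the 65 cells. So did Myh11 and Mylk, genes of mature smooth muscle, the epicardial genes Wt1 and Tcf21, and the endothelial claudin Cldn5. These genes were also rare in the other kept cells, from 0.0113% of them (Myf5) to 4.87% (Cldn5), so 0 in 65 cells says little. The endothelial cadherin Cdh5 had 1 UMI in all, in 1 cell, while the endothelial genes Egfl7 and Kdr were in 44 and 22 cells.

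The 4 defining genes spanned a wide range. Tnnt2 had a median of 48 UMIs per cell (1 to 542), Myl7 of 18 (1 to 584), Myl4 of 54 (1 to 353) and Actc1 of 32 (1 to 917). Actc1 was the highest of the 4 in 29 cells, Tnnt2 in 20, Myl4 in 13 and Myl7 in 3. Their sum ran from 27 to 2396 UMIs, with a median of 163. Per 10000 UMIs of the cell, the sum ran from 2.84 to 761 with a median of 47.2. 18 cells were above 100 per 10000 and 10 were under 10.

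The threshold of 20 UMIs cut few cells. The lowest sums inside it were 27, 28 and 28 UMIs, and 22 kept cells had all 4 genes but fewer than 20 UMIs, with a median of 10 and 3 cells at 19. The requirement for all 4 genes cut more: 209 kept cells reached 20 UMIs but lacked at least 1 gene. Myl7 was at 0 in 164 of these cells, Myl4 in 101, Tnnt2 in 92 and Actc1 in 35. Actc1 was the highest of the 4 in 148 of the 209. These cells had a median of 3 of the 16 other heart muscle genes, and 38 of 209 had at least 5. Their summed level of the smooth muscle list was 65.8 per 10000 UMIs, close in size to the 68.1 of the cardiac muscle-like cells, while that of Nkx2-5 was 0.0539 against 0.947. These levels are sums over the cells, and a few cells can carry much of a sum. The plot of Actc1 against the other 3 genes shows where the 209 cells lie.

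**Figure D1:**
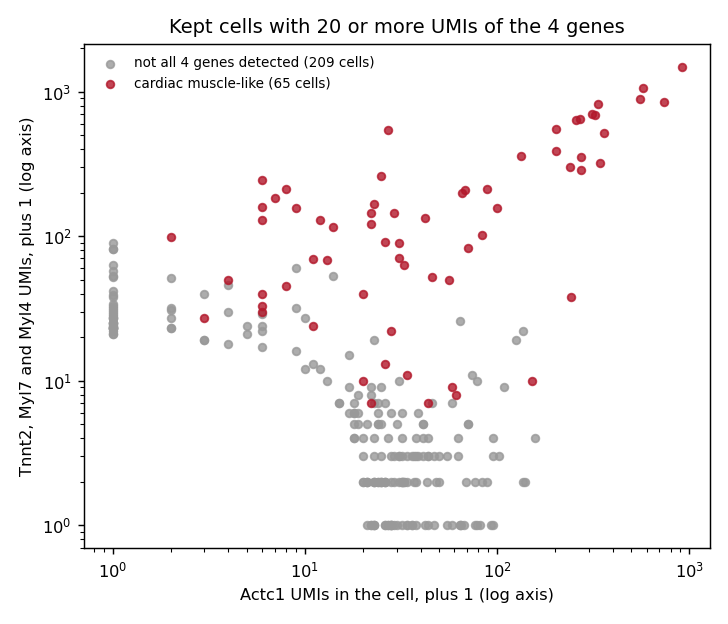
Kept cells with at least 20 UMIs of Tnnt2, Myl7, Myl4 and Actc1, one point per cell: Actc1 UMIs plus 1 (horizontal, log axis) against the summed UMIs of the other 3 genes plus 1 (vertical, log axis). The 65 cardiac muscle-like cells (red) reach 917 Actc1 UMIs, and the 209 cells that lack at least 1 gene (grey) lie mostly along either axis.

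In other cells the 4 genes were scarce but not absent. Tnnt2 had a UMI in 19.9% of the other kept cells, Myl4 in 19.2%, Actc1 in 9.80% and Myl7 in 9.04%. Cells with at least 100 globin UMIs, which should lack these genes, showed them in 9.43%, 15.2%, 8.20% and 4.10%, at a median of 41754.5 UMIs per cell. A single UMI of any of the 4 genes was therefore not read as expression.

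Most of the cardiac muscle-like cells carried a C hash. Of 56 with a single hash, 34 were in C1 and 12 in CB (82.1% together), whereas 15.7% of the other kept cells with a single hash were in these columns. The share was 34 of 1034 kept cells in C1 (3.29%, exact Clopper-Pearson 95% interval 2.29 to 4.56%) and 12 of 1440 in CB (0.833%, 0.431 to 1.45%). In the 10 B and D columns together it was 10 of 13094 (0.0764%, 0.0366 to 0.140%). The interval of C1 lay above those of all 10 B and D columns, the highest of which reached 0.648%, while that of CB overlapped some of them. C1 and CB are 2 columns of unknown meaning, so no test was made of this difference.

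The B and D hashes did not differ detectably. The 3 B columns held 0 of 1103, 0 of 826 and 2 of 1112 cells (0.0600% ± 0.104, SD, n = 3). The 7 D columns held 1 of 1488, 1 of 1365, 1 of 1522, 3 of 1435, 2 of 1440, 0 of 1409 and 0 of 1394 (0.0792% ± 0.0745, SD, n = 7). The difference D minus B was 0.0192 percentage points (exact two-sided permutation test over the columns, p = 0.767), and the values overlapped. In this permutation test the smallest p possible in 1 direction is 0.00833, and the two-sided p cannot be that small. For the 0 of 1103 cells, the share of 3 cells is 0.272% and the exact upper limit 0.334%. A difference of 0.0192 percentage points was thus below what the cell numbers could show. The test says how the columns vary, and whether they are separate cultures is not given in the labels.

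**Figure D2:**
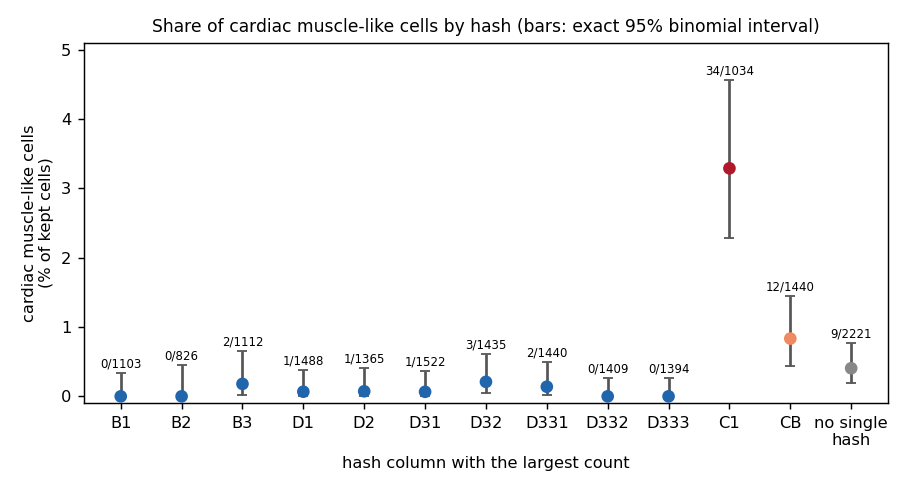
Share of kept cells that were cardiac muscle-like (vertical, %) in each of the 12 hash columns and in cells without a single hash, with the exact 95% binomial interval as bars and the cells behind each share printed above. C1 (3.29%) and CB (0.833%) lie above the B and D columns, whose highest share is 0.209%.

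The few cardiac muscle-like cells of B and D hashes were deeper cells. Their median was 71507 UMIs (44381 to 107394), against 31512.5 in C1 and 31067.5 in CB, and 4 of the 10 were above 2 times the median of kept cells. The 4 genes, whose values chose the cells, reached a median of 14.8 per 10000 UMIs in these 10 cells, 52.4 in C1, 211 in CB and 26 in the 9 cells without a single hash. Tnni1, which the rule did not use, was at 3.5 per 10000 UMIs in the B and D cells, against 15.6 in C1. A deep cell reaches 20 UMIs at a lower level, and the part of depth in the B and D count was not tested. When the rule asked for 20 of every 10000 UMIs instead, 49 cells remained, with 31 in C1, 8 in CB, 5 in D columns and 0 in B columns.

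Sarcomere and heart muscle genes other than the 4 that chose the cells were higher in the cardiac muscle-like cells by a wide margin. Of 80 genes on 5 lists (thick filament, thin filament, Z disc, calcium handling and channels, and cardiac transcription factors), 67 reached 100 UMIs over the kept cells, and 38 of these were at least 4-fold higher than in the other kept cells with at least 10 UMIs, with 0 at least 4-fold lower. Over all 14909 genes tested in the same way, 1.69% were higher and 0.584% lower by this rule. The cells were chosen by genes of the same programme, so the comparison is a description. Because the hashes differ in their other cells, each level is also given within hash: 36 of the 67 were at least 4-fold higher within C1 (background 1.13%), 30 within CB (0.912%) and 28 in both (0.684%). A gene can pass the minimum through the cells in which it is high. With the minimum met in the other kept cells alone, 37 of 66 heart genes were at least 4-fold higher, against 1.63% of all genes.

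Thick filament genes were far higher than in the other kept cells. Of 10 genes besides Myl7 and Myl4, 6 had at least 100 UMIs in the other kept cells alone (Myh7, Myl2, Myl3, Mybpc3, Myom1 and Ttn). Each of the 6 was at least 4-fold higher (1.63% of all genes), and Myh6 passed only with the UMIs of the cardiac muscle-like cells. The giant spring protein gene Ttn had a UMI in 52 of 65 cells (median 15 UMIs, highest 273). Its summed level was 9.62 per 10000 UMIs (exact Poisson interval 9.09 to 10.2) in C1 cardiac muscle-like cells and 0.0226 (0.0179 to 0.0281) in other C1 cells. In CB the levels were 19.2 (17.9 to 20.5) and 0.00823 (0.00596 to 0.0111). Ttn of 10 UMIs or more was found in 40 cardiac muscle-like cells and in 1 of the 17724 other cells.

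The slow myosin heavy chain gene Myh7 was detected in more of the cells than the fast cardiac form Myh6. Myh7 had a UMI in 55 cells and Myh6 in 28, and 27 cells had both, 28 Myh7 without Myh6, 1 Myh6 without Myh7 and 9 neither. Myh7 stood at 2.86 per 10000 UMIs in C1 against 0.140 in other C1 cells, and at 3.38 in CB against 0.0932. Myh6 stood at 2.19 against 0.00424 in C1 and at 3.42 against 0.00211 in CB. The light chain gene Myl3, of ventricular and slow muscle, was in 56 cells at 12.7 per 10000 over all 65, against 0.107 in the other kept cells. The ventricular light chain gene Myl2 was in 15 cells (8 in C1, 4 in CB), with up to 93 UMIs in a cell, and at 0 in the rest.

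Of 10 tested thin filament genes, 7 were at least 4-fold higher (1.69% of all tested genes), 3 of them in both C1 and CB (0.684%). Tnni1 had a UMI in all 65 cells, at 15.6 per 10000 UMIs in C1 (14.9 to 16.3) against 0.508 in other C1 cells, and at 15 (13.9 to 16.2) against 0.405 in CB. The adult form Tnni3 had a UMI in 2 of 65 cells, with 22 UMIs in all, of which 18 were in 1 cell. Slow and cardiac troponin C (Tnnc1) was in 62 cells, at 12.5 against 0.382 in C1 and 13.4 against 0.245 in CB. The tropomyosin gene Tpm1, common to many cell types, differed less, at 61.6 against 25.5 in C1 and 64.6 against 24.9 in CB. Skeletal actin Acta1, which the embryonic heart also uses, was in 24 cells, at 1.63 against 0.776 in C1 and at 5.92 against 0.543 in CB, and Tnnt1, the slow skeletal troponin T, in 1.

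Of 13 tested Z disc and cytoskeletal genes, 11 were at least 4-fold higher (1.69% of all tested genes), and 9 were so in both C1 and CB (0.684%). Nebl, a nebulin relative of the heart Z disc, was in 53 cells, at 2.84 per 10000 UMIs against 0.0424 in C1 and 3.77 against 0.0209 in CB. The muscle LIM protein gene Csrp3 was in 48 cells, at 2.84 against 0.0785 in C1 and 0.907 against 0.0444 in CB. The intermediate filament gene Des (desmin) was in 51 cells, at 1.41 against 0.124 in C1 and 1.5 against 0.0635 in CB. Fhl2 was not set apart, at 0.758 per 10000 over all 65 cells against 0.453.

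Genes of calcium handling and of the membrane were detected in part. 7 of 14 tested genes were at least 4-fold higher (1.69% of all tested genes). The calcium release channel gene Ryr2 was in 36 cells, at 0.439 against 0.0181 per 10000 UMIs in C1 and 0.703 against 0.0155 in CB. The L-type calcium channel gene Cacna1d was in 37 cells, at 0.638 against 0.0181 in C1 and 0.658 against 0.00689 in CB. Phospholamban (Pln), a brake on the calcium pump, was in 15 cells and in 0.0451% of the other kept cells. The pump gene Atp2a2, used in all cells, stood at 2.13 against 0.917 in C1 and 3.22 against 0.911 in CB. The pacemaker channel gene Hcn4 was in 16 cells. Connexin 43 (Gja1) was lower, at 0.471 against 0.981 in C1 and 0.476 against 0.938 in CB, and Sln, Kcnq1 and Gja5 were at 0.

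**Figure D3:**
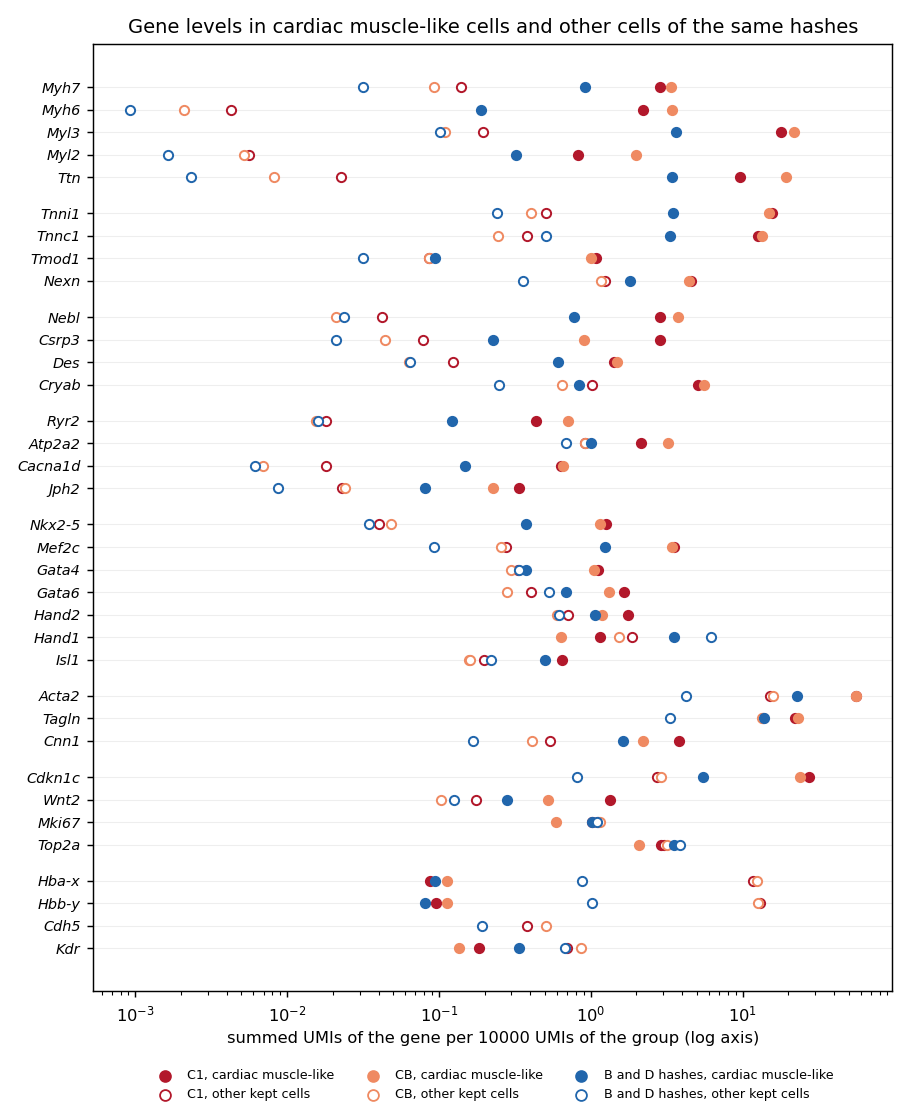
Summed UMIs of each gene per 10000 UMIs of the group (log axis) in cardiac muscle-like cells (filled) and in the other kept cells of the same hashes (open), for C1, CB and the B and D columns; groups with 0 UMIs of a gene have no point. Sarcomere genes lie to the right of the other cells in all 3 hash groups, with Ttn at 9.62 against 0.0226 in C1, and the globin genes lie to the left.

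Cardiac transcription factors differed in how far they were set apart. Of 23 tested, 6 were at least 4-fold higher than in all other kept cells (1.69% of all tested genes) and 5 in both C1 and CB (0.684%). Nkx2-5, the homeobox factor of heart muscle, was in 53 of 65 cells and in 10.2% of the other kept cells, at 1.25 per 10000 UMIs (1.06 to 1.47) against 0.0404 in C1 and 1.16 (0.861 to 1.52) against 0.0482 in CB. Mef2c was in 56 cells and in 18.9% of the other kept cells, at 3.53 against 0.276 in C1 and 3.42 against 0.258 in CB. The muscle methyltransferase gene Smyd1 was in 48 cells, at 1.88 against 0.0181 in C1 and 2.13 against 0.00861 in CB. Myocd (myocardin, a partner of serum response factor) was in 27 cells, Gata5 in 25 and Tbx5 in 20.

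Gata4, Gata6 and Hand2 were present in most of the other cells as well. Gata4 stood at 1.12 against 0.332 per 10000 UMIs in C1 and 1.04 against 0.299 in CB, Gata6 at 1.67 against 0.404 and 1.32 against 0.282, and Hand2 at 1.75 against 0.713 and 1.18 against 0.597. Hand1, a factor of lateral and extraembryonic mesoderm, was lower than in the other cells of the same hash, at 1.15 (0.969 to 1.35) against 1.86 in C1 and 0.635 (0.422 to 0.918) against 1.54 in CB. Over all hashes Hand1 was at 2.16 against 5.40, a larger gap that holds the low Hand1 of other C1 and CB cells beside the 6.17 of other B and D cells. Tbx20 stood at 0.335 against 0.150 in C1 and 0.454 against 0.168 in CB, and Tbx3, a factor of the conduction system, at 0.519 against 0.721 and 0.249 against 0.795.

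The first heart field list (Hcn4, Tbx5, Hand1, Sfrp5 and Nkx2-5) had 4 of 5 genes at least 4-fold higher (1.69% of all tested genes), all but Hand1. Within C1 the count was 4 (1.13%), but within CB it was 1 (0.912%), where fewer cells left several genes under 10 UMIs. Of genes tied to the second heart field, the growth factor gene Fgf10 was in 35 cells, at 0.335 against 0.101 per 10000 UMIs in C1 and 0.386 against 0.0856 in CB. Fgf8, a growth factor gene of the same field, was at 0.192 against 0.153 in C1 and 0.136 against 0.129 in CB, Hoxb1 was in 2 cells and Tbx1 was at 0. Isl1, a factor of second heart field progenitors, was in 37 cells (56.9%, against 35.1% of the other kept cells), at 0.646 (0.513 to 0.803) against 0.197 per 10000 UMIs in C1 but at 0.159 (0.0638 to 0.327) against 0.159 in CB.

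The natriuretic peptide gene Nppa, of atrial and trabecular muscle, was in 16 cells, with up to 56 UMIs. 11 of these were among the 34 C1 cells, and 0 of 12 were in CB. Cells with Nppa had a median of 1.09 Ttn UMIs per 10000, against 8.67 in the 49 cells without it, and a median of 22.9 Tagln UMIs per 10000 against 3.30. Nppa and Myl2 were together in 4 cells. The gene for the B-type peptide, Nppb, was in 14 cells.

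Smooth muscle genes were high beside the heart genes. Acta2 had a UMI in all 65 cells, at 56.0 per 10000 UMIs (54.7 to 57.3) against 15.2 in other C1 cells and 55.7 (53.5 to 57.9) against 15.9 in CB. The calponin gene Cnn1 was in 54 cells, at 3.84 against 0.542 in C1 and 2.22 against 0.412 in CB. Transgelin (Tagln) was in 62 cells but differed less, at 22.2 against 13.5 in C1 and 23.3 against 13.4 in CB. Against all other kept cells Tagln was 4.43-fold higher, which falls to 1.64-fold in C1 and 1.74-fold in CB because other C1 and CB cells held more of it. A single cell reached 1332 Tagln UMIs.

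The cyclin-dependent kinase inhibitor gene Cdkn1c, an imprinted gene, split the cells. It was at 0 in 15 cells, at 1 to 10 UMIs in 19 more and at 50 or more in 25, with a highest count of 548, and 6 cells lay between. In C1, 16 of 34 cells (47.1%, exact interval 29.8 to 64.9%) reached 50 UMIs, against 50 of 1000 other cells (5%, 3.73 to 6.54%). In CB it was 4 of 12 (33.3%, 9.92 to 65.1%) against 79 of 1428 (5.53%, 4.40 to 6.85%). The summed level was 27.4 per 10000 UMIs against 2.74 in C1 and 23.9 against 2.90 in CB. The levels of the 25 high cells and the 34 cells with 10 or fewer UMIs overlapped in the 4 defining genes, with medians of 55.8 and 44 per 10000.

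**Figure D4:**
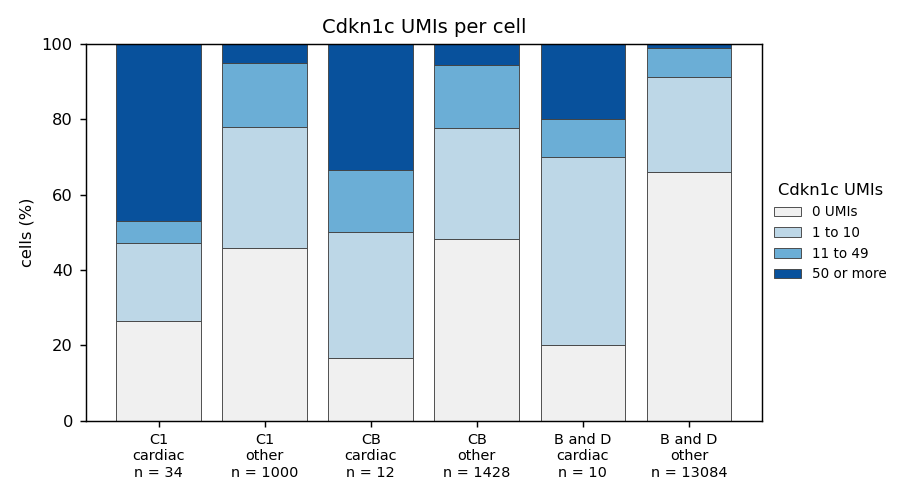
Share of cells (vertical, %) with 0, 1 to 10, 11 to 49 and 50 or more Cdkn1c UMIs in cardiac muscle-like cells and other kept cells of C1, CB and the B and D columns, with the number of cells below each bar. At least 50 UMIs were found in 47.1% of the cardiac muscle-like cells of C1 and in 5% of its other cells.

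Cycling genes were near the level of the other cells in C1 and lower in the 12 cells of CB, with list sums of 15.4 against 15.9 per 10000 UMIs in C1 and 11.2 against 16.4 in CB. Of 12 proliferation genes, 0 were at least 4-fold higher or lower. Over all tested genes 1.69% were higher and 0.584% lower, so this count alone does not show near levels. The marker Mki67 was in 43 cells (66.2%, against 73.6% of other kept cells), at 1.01 against 1.11 per 10000 UMIs in C1 and 0.590 (0.385 to 0.864) against 1.14 in CB. Top2a, a topoisomerase of dividing cells, stood at 2.92 against 3.03 in C1 and 2.06 (1.66 to 2.53) against 3.18 in CB. With each cell thinned to 3000 UMIs, Mki67 was found in 18.5% of the cardiac muscle-like cells and 23.3% of the other cells.

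Signalling genes differed in single cases. Of 16 tested signalling genes, 1 was at least 4-fold higher (1.69% of all tested genes), too few to set the list apart. It was Wnt2, a ligand of early cardiac mesoderm, in 44 cells, at 1.34 against 0.175 per 10000 UMIs in C1 and 0.522 against 0.102 in CB. The proteoglycan gene Vcan stood at 3.25 against 1.32 in C1 and 4.58 against 1.19 in CB, and Hapln1 was lower, at 0.303 against 0.727 and 0.159 against 1.01. Bmp4, a ligand that drives cardiac mesoderm, differed little, at 2.01 against 1.48 in C1 and 1.45 against 1.27 in CB. Of 6 metabolic genes with at least 100 UMIs in the other kept cells, 1 was at least 4-fold higher (1.63% of all genes). It was the cytochrome oxidase subunit gene Cox7a1, in 39 cells. Cox6a2, the heart and muscle form of another subunit, passed the minimum only with the UMIs of the cardiac muscle-like cells, and was in 27 of them and in 0.220% of the other kept cells. The muscle creatine kinase genes Ckm and Ckmt2 were at 0.

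Among the 25 genes with the highest ratio to the other kept cells, of those in at least 20% of the cardiac muscle-like cells, 4 were the defining genes and 11 belonged to the 5 heart lists. The other 10 were Cox6a2, Cck, Sphkap, Asb2, Mhrt, Hspb7, Tecrl, Ctnna3, Hspb3 and 5430431A17Rik. Cck, the gene of the peptide cholecystokinin, was in 32 cells, at 1.87 against 0.0251 per 10000 UMIs in C1 and 5.51 against 0.0101 in CB, with up to 90 UMIs in a cell. Asb2, a muscle ubiquitin ligase subunit, was in 45 cells, at 1.1 against 0.00960 in C1 and 1.02 against 0.00746 in CB. Hspb7, a heat shock protein of heart muscle, was in 50 cells, at 1.34 against 0.0152 in C1 and 1.70 against 0.0109 in CB. 5430431A17Rik, a gene with no function known here, was in 26 cells and in 0.220% of the other kept cells. Mhrt is transcribed from the Myh7 and Myh6 region, and reads of overlapping transcripts could be shared.

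Among genes in at least 20% of the other kept cells, the 15 with the lowest ratio were Rasip1, Hbb-y, Hba-x, Hbb-bh1, Hlx, Ramp2, Tal1, Cyp4f16, Selenop, Pecam1, Hoxb8, Ctla2a, Tdo2, Dapk2 and Zfp979. Cdh5, with a UMI in 18.6% of the other kept cells, fell outside that limit. Of the 15, 9 were at least 4-fold lower in both C1 and CB (0.174% of all tested genes). They were chosen by their ratio in the same cells, so this count is a description. Tdo2 differed little within C1, at 0.0160 per 10000 UMIs (0.00193 to 0.0577) against 0.0192, and was at 0.170 in other B and D cells. Zfp979 differed little within the B and D columns, at 0.108 (0.0464 to 0.212) against 0.136, and was at 0.0192 in other C1 cells. The embryonic globins stood at 0.0958 per 10000 UMIs (Hbb-y), 0.0878 (Hba-x) and 0.0638 (Hbb-bh1) in C1 cardiac muscle-like cells, against 13.1, 11.7 and 5.67 in other C1 cells, and no cell held more than 2 UMIs of any of them. Hba-x still had a UMI in 26 of 65 cells, and it had one in 35.0% of the other kept cells. Rasip1, an endothelial Ras-binding protein gene, had 2 UMIs in the 65 cells, and Ramp2 was at 0.0559 against 2.07 in C1. Of 9 endothelial genes, 7 were at least 4-fold lower (background 0.584% of all genes), 6 within C1 (0.771%) and 5 within CB (0.349%), and the summed list was 0.511 per 10000 UMIs against 3.90 in C1 and 0.590 against 5.01 in CB. The vascular receptor gene Kdr remained in 22 cells, at 0.184 against 0.697 in C1.

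Genes of other identities found in at least 10% of the cells were counted for each list. They were 4 of 9 endothelial genes, 4 of 6 erythroid, 4 of 6 mesenchymal, 2 of 8 endodermal, 2 of 7 pluripotency, 3 of 7 primitive streak, 2 of 6 neural, 1 of 9 skeletal muscle (Tnnt3), 0 of 5 epicardial and 6 of 6 lateral mesoderm genes. With the smooth muscle list these were 33 genes, and 20 of them were in a larger share of the other kept cells. Of all tested genes, 70.0% were in at least 10% of the cells. The endothelial genes were Egfl7 in 44 cells, Kdr in 22, Pecam1 in 8 and Plvap in 7. The mesenchymal genes were Pdgfra in 24, Col1a1 in 22, Col3a1 in 21 and Col1a2 in 8. The pluripotency genes were Dnmt3b in 25 and Sox2 in 13, the neural genes Nes in 36 and Tubb3 in 30, and the streak genes Mixl1 and Evx1 in 8 each and Lhx1 in 7. Among endodermal genes, Epcam was in 11 cells, with up to 34 UMIs, and Sox17 in 7, with up to 23. The summed endodermal list ran from 0 to 12.8 per 10000 UMIs with a median of 0, and the erythroid list from 0 to 1.27. The part of these few cells in the levels above was not tested. With only the 49 cells that had a single hash and at most 2 times the median UMIs, 38 of the 67 heart genes were at least 4-fold higher, as many as before. The genes of other identities were not recounted in these 49 cells. A droplet of 2 cells would keep its heart genes, so this count cannot show whether such droplets were present. Of 8 dissociation stress genes 0 differed by 4-fold (over all tested genes 1.69% were higher and 0.584% lower), so this count says little. Their sum was 4.01 per 10000 UMIs against 3.95 in C1.

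The cells differed widely in the level of the 4 genes, and no clustering into sets was made. Across the 65 cells, the level of the 4 defining genes went with that of Tnni1 (Spearman's rho 0.90, a description over cells that share depth and library), Sh3bgr (0.85), Nebl (0.83), Tnnc1 (0.83), Myl3 (0.76), Myh6 (0.71), Ttn (0.71), Mef2c (0.68) and Nkx2-5 (0.66). It went against that of Ptma (-0.63) and Actb (-0.56), 2 abundant genes of most cells. The total UMIs of the cell were also lower at the top of the range (rho -0.50). Within the 34 C1 cells, where rho with total UMIs was -0.30, the values were 0.82 for Tnni1, 0.76 for Nebl and 0.58 for Ttn.

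The 4 genes chose the cells, so an order by them is a description over cells that are not replicates. The rule also lets deep cells in at lower levels. Ordered by the 4 genes, the lowest 22 cells held 2.84 to 26.1 per 10000 UMIs, the middle 21 held 27.1 to 86.1 and the highest 22 held 87.2 to 761. Tnni1 was at 2.60, 11.3 and 27.8 per 10000 over these, and was found in every cell of all 3. Myh6 was in 4, 5 and 19 cells and Ryr2 in 7, 10 and 19. Nkx2-5 was in 14, 18 and 21 cells and Tbx5 in 1, 6 and 13. The summed level of Tagln was 26.5, 14.6 and 18 per 10000 UMIs, while its medians per cell fell from 9.04 to 7.61 and 3.36. Acta2 was at 30.9, 38.0 and 74.0, with medians per cell of 23.7, 27.8 and 64.8.

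Proliferation genes had their lowest summed level in the highest 22 cells. Their sum was 16.4, 19.4 and 10.4 per 10000 UMIs, with medians per cell of 16.9, 18.2 and 5.99, and Mki67 was in 18, 16 and 9 cells. Over the 65 cells, rho between the 4 genes and the proliferation sum was -0.37, and within C1 it was -0.42. The summed level of Hand1 was 3.07, 1.48 and 1.12 per 10000, with medians per cell of 0.674, 0.561 and 0.439. That of Isl1 was 0.410, 0.837 and 0.661, with medians per cell of 0.110, 0.274 and 0.300. The hashes were unequal over the range: 6, 15 and 13 of the cells were of C1, 4, 1 and 7 of CB, and 7, 2 and 1 of B and D columns, and the median depth was 66332.5, 36531 and 30642 UMIs. The part of depth in these trends was not tested.

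**Figure D5:**
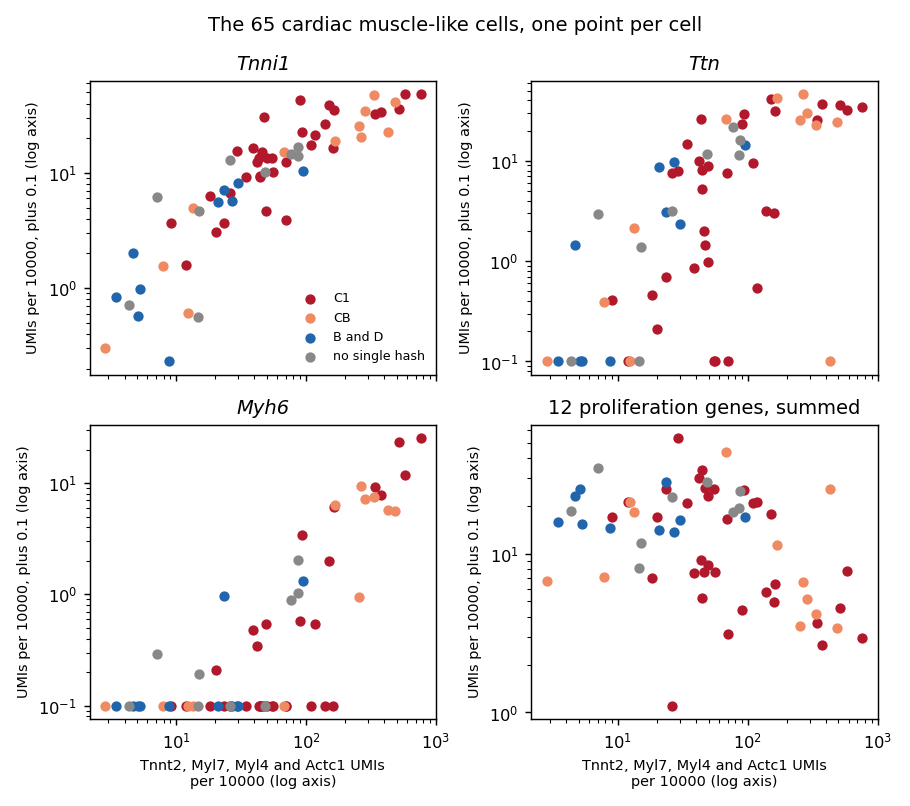
The 65 cardiac muscle-like cells, one point per cell coloured by hash: UMIs of the 4 defining genes per 10000 (horizontal, log axis) against Tnni1, Ttn, Myh6 and the sum of 12 proliferation genes per 10000 plus 0.1 (vertical, log axes). Tnni1 follows the 4 genes (rho 0.90), Myh6 is in 19 of the highest 22 cells, and the median proliferation sum of those 22 cells is 5.99.

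Each cell was thinned to 3000 UMIs, which kept all 65 cells and left out 220 other cells. Many heart genes, but not all, remained more often detected in the cardiac muscle-like cells. The planned count asked for 5 or more of these cells and a share above that of the other cells by a set factor. It was 33 of 67 heart genes, against 39 without thinning. Hand1 was found in 27.7% of the cardiac muscle-like cells and 48.5% of the other cells. Tbx3 was found in 15.4% and 20.1%, and Gja1 in 21.5% and 22.6%. Tnni1 was found in 86.2% of the cardiac muscle-like cells and 6.53% of the other cells (100% and 41.6% before thinning), Ttn in 56.9% and 0.160% (80.0% and 1.21%), and Nkx2-5 in 21.5% and 1.13% (81.5% and 10.2%). Cdkn1c was found in 52.3% and 15.8% (76.9% and 38.8%).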

How the data were processed

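1 single-cell library of pooled embryoid bodies was analysed. Per the labels' protocols it was made with 10X Chromium v3 chemistry, and the submitters' processing notes name Cell Ranger and the build mm10. Per the file headers, software version 3.1.0 wrote the deposited matrix, whose values are raw UMI counts over 31053 genes. The deposited hash table holds counts of lipid barcodes, read by column name. The authors' deposited tables of normalized signal for bulk embryonic stem cells and epiblast-like cells, with a scaling method that no label or header states, served only to choose the strain genes of the closing section (mean of at least 5 in the higher strain). The remaining deposited tables were not used here. Total counts per cell give the depth, and intervals (exact Clopper-Pearson for shares, exact Poisson for summed counts) cover 95% counting error only.

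Levels are UMIs of a gene summed over a group, per 10000 summed UMIs. A gene was tested with at least 100 UMIs over kept cells. It was called higher with at least 10 UMIs in the cardiac muscle-like cells and 4 times the level elsewhere, and lower where the ratio was as large the other way, with counts under 3 set to 3. No doublet caller was run. Named genes were the members of the heart lists with 100 or more UMIs, counted with examples, the 25 highest and 15 lowest ratios among genes in at least 20% of cells, and genes of other cell types' lists in at least 10% of the cells. Cells and lists were chosen with earlier results of these data known. Shares were compared between B and D columns by an exact permutation test. Gene tests between B and D columns within the cells could not be run, since 0 columns held the 10 cells needed. Python 3.11.15, numpy 2.4.6, scipy 1.17.1 and pandas 2.3.3 were used, and the calling rule was tested on simulated data. The closing section gives the alternatives. Some items of the gene lists are not reported here.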

Additional observations from a re-analysis of the deposited data

Results flagged for a closer look

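The hash columns C1 and CB, whose group the labels do not give, held cardiac muscle-like cells at 3.29% (34 of 1034 kept cells) and 0.833% (12 of 1440), above the share in each of the 10 B and D columns, the highest of which was 0.209%. No other result stood out by the rules applied: among the 7 D columns no share was far from the others.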

How the results depend on the processing

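The share of cardiac muscle-like cells was recomputed with other thresholds of UMIs, genes, mitochondrial share and hash ratio, and, chosen after seeing the data, without deep cells and with the 5 D3 columns as 1. Under these C1 stayed between 3 and 3.65% and CB between 0.556 and 0.972%. The difference D minus B passed the test under no setting. Leaving out 1 hash column moved it from -0.0108 (without B1 or B2) to 0.0792 percentage points (without B3), with p from 0.333 to 1 in the exact permutation test. It was -0.00280 with 10 UMIs, -0.0139 with a hash ratio of 3 and -0.0394 with 5, so its direction is not settled. The count of heart genes at least 4-fold higher ran from 30 (within CB) to 39 (20 of every 10000 UMIs), against 38. The count over all genes, 252 higher and 87 lower, was 136 and 52 within CB, and 150 and 31 without C1 and CB cells, where fewer cells enter. With the minimum of 100 UMIs met in the other kept cells alone, chosen after seeing the data, the count of heart genes was 37. Over all genes it was 243 higher and 87 lower. The planned gene tests between B and D columns and their alternatives were not run, because too few cardiac muscle-like cells carried those hashes. No paired analysis was possible because the library is 1 sample and hash columns share no replicate numbers.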

Other observations

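The strain of the C1 and CB cells is not given by the labels. Over 11 genes at least 8-fold higher in D2 than in B6 bulk samples of both embryonic stem cells and epiblast-like cells (3 per strain, no overlap between strains), the summed level per 10000 UMIs was 7.69 to 7.73 in the B columns, 13.1 to 14 in the D columns, 12.8 in C1 and 12.9 in CB. In the cardiac muscle-like cells alone it was 12.8 in C1 and 12.2 in CB. Atp5g2 made up much of the sum, at 7.22 to 7.28 in the B columns, 7.66 to 8.19 in the D columns, 8.37 in C1 and 8.40 in CB. Gm10260 stood at 0.0487 to 0.0726 in the B columns, 2.19 to 2.63 in the D columns, 2.03 in C1 and 2.05 in CB. Ccnb1ip1 and Mmrn2, of the same 11 genes, were higher in the B columns. Ccnb1ip1 was at 0.0920 to 0.109 against 0.0256 to 0.0344 in the D columns, and Mmrn2 at 0.0789 to 0.0988 against 0.0270 to 0.0415. Over 7 genes higher in B6, the sum was 1.18 to 1.2 in the B columns, 0.899 to 1.09 in the D columns, 1.09 in C1 and 1.1 in CB. Gm9493 made up much of that sum and did not separate the B columns (0.536 to 0.550) from the D columns (0.517 to 0.631). Of the 18 genes, 5, 5 and 6 lay on the D2 side of the median over columns in the B columns, 10 to 14 in the D columns, 7 in C1 and 5 in CB. The sums and this count thus place CB differently. Tpm3-rs7 stood at 0.0844 to 0.107 in the B columns, 2.18 to 2.42 in the D columns, 1.37 in C1 and 1.30 in CB. Tceanc2, higher in B6, stood at 0.130 to 0.137 in the B columns, 0.0154 to 0.0218 in the D columns, 0.127 in C1 and 0.115 in CB.

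The 209 cells with at least 20 UMIs of the 4 defining genes but at least 1 of them at 0 were spread differently over the hashes: 58 in B columns (1.91%), 38 in D columns (0.378%), 39 in C1 (3.77%) and 39 in CB (2.71%).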
